A study of Mus musculus with 6 samples.

Results

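Wnt signalling was followed through 50 genes in brain mural cells and in microvascular fragments. The genes were 12 ligands (11 Wnt genes and *Ndp*), the ligand acyltransferase *Porcn*, 14 receptors and co-receptors, 7 genes of the β-catenin machinery, 4 TCF/LEF factors, 6 feedback targets and 6 secreted antagonists. They were chosen by function, with earlier results of these data known. All 50 were found by symbol among the 33460 genes of the data. Both groups came from the brains of mice at P6 that carried 2 transgenic reporters, *Pdgfrb-eGFP* and *NG2-DsRed*. The mural cell group (n = 3) held cells positive for both reporters, sorted by FACS, and the reference group (n = 3) held microvascular fragments isolated with anti-CD31 beads. According to the methods, both preparations were made from the same 3 brains. The fragments contain mural cells as well as endothelial cells, so each ratio sets mural cells against a mixture that includes them. Neither reporter alone is fully specific to mural cells. The study describes their expression outside mural cells as separate, so that the sort for both should leave other cell types out, and the sorted cells include pericytes of capillaries together with mural cells of arterioles and venules. No separate treatment or mutation was compared.

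Wnt proteins are lipid-modified secreted ligands that bind Frizzled receptors and the co-receptors Lrp5 and Lrp6 on the receiving cell. Binding stops a complex of Apc, Axin and Gsk3b from marking β-catenin for degradation, and β-catenin then acts with TCF/LEF factors on target genes, several of which dampen the signal in turn. In the developing brain this pathway is known for its part in the ingrowth of vessels and in the blood-brain barrier, where Wnt7a and Wnt7b made by neural cells act on endothelial cells. Some ligands, Wnt5a and Wnt5b among them, also signal without β-catenin.

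Expression was measured by RNA-seq as FPKM, the fragments of a gene scaled to transcript length and to the fragments mapped in the library. Since FPKM is scaled to length, levels of different genes can be set side by side, but only approximately. Scaling to length does not correct other differences between genes, such as the effect of duplicate removal on abundant genes. Per library, approximately 5.422 to 5.953 M sequenced fragments fell on protein-coding genes for the microvascular fragments and 1.035 to 2.367 M for the mural cells, so low values are less certain in mural cells. All 10 mural cell markers were higher in mural cells (median 916.6% of the fragment level), among them *Pdgfrb* (445 against 45.4 FPKM) and *Cspg4* (257 against 39.7 FPKM). The cells were sorted on reporters of *Pdgfrb* and of *Cspg4* (NG2), so a difference in these genes follows from the sort. The marker list was chosen with earlier results of these data known and is no independent check of identity. Endothelial transcripts were still abundant in the mural cell libraries, at a median of 67.21% of the fragment level over 12 markers, with *Cldn5* at 489 FPKM against 602 FPKM and *Pecam1* at 234 FPKM against 371 FPKM. All 8 microglial markers were lower in mural cells (median 8.594%), as were 5 of 8 markers of choroid plexus and ependyma (median 26.07%). Of the 7 tested markers of fibroblasts and meninges, 5 were higher in mural cells (median 732.8%). Summed astrocyte markers were 263, 224 and 809 FPKM in mural cell libraries 1, 2 and 3, so library 3 stood apart. In such bulk samples, fewer cells of a type and less RNA per cell cannot be told apart.

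Of the 50 genes, 6 were higher in mural cells than in fragments: the ligand *Wnt5b*, the receptor *Fzd10*, the co-receptor component *Tspan12*, the feedback target *Axin2*, and the secreted factors *Dkk3* and *Sfrp2*. None was lower by the same criteria, although 3 of the tested genes had an unadjusted p under 0.05 in that direction, beside 20.9% of all genes tested. A gene was called when limma on log2(FPKM + 1) gave a Benjamini-Hochberg adjusted p under 0.05 over all genes tested and the ratio of mean FPKM was above 2 or under 0.5. Only genes that reached 1 FPKM in 3 or more of the 6 libraries were tested, which 44 of the 50 genes did, and each of the 44 reached it in at least 1 fragment library. The 6 genes are 13.6% of the 44 tested, beside 6.43% of all 14801 genes tested that were higher in mural cells and 10.1% that were lower. Under quantile normalization the counts over all genes changed from 952 higher and 1493 lower to 1212 higher and 1080 lower. With the adjusted p alone, 8 of the 44 were higher and 1 was lower, beside 9.34% and 13.0% of all genes tested. All 3 mural cell libraries lay above all 3 fragment libraries for 13 of the 44, and below them for 2, beside 16.5% and 24.5% of all genes tested.

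For the larger part of the pathway the 2 preparations differed by less than the fold limit. The ratio of mean FPKM lay between 0.5 and 2 for 33 of the 44 genes. The median ratio was 1.119 over the 44 genes and 0.9433 over all genes tested. The ratios ranged from 0.333 for *Wnt2b* to 11.2 for *Fzd10*.

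**Figure D1:**
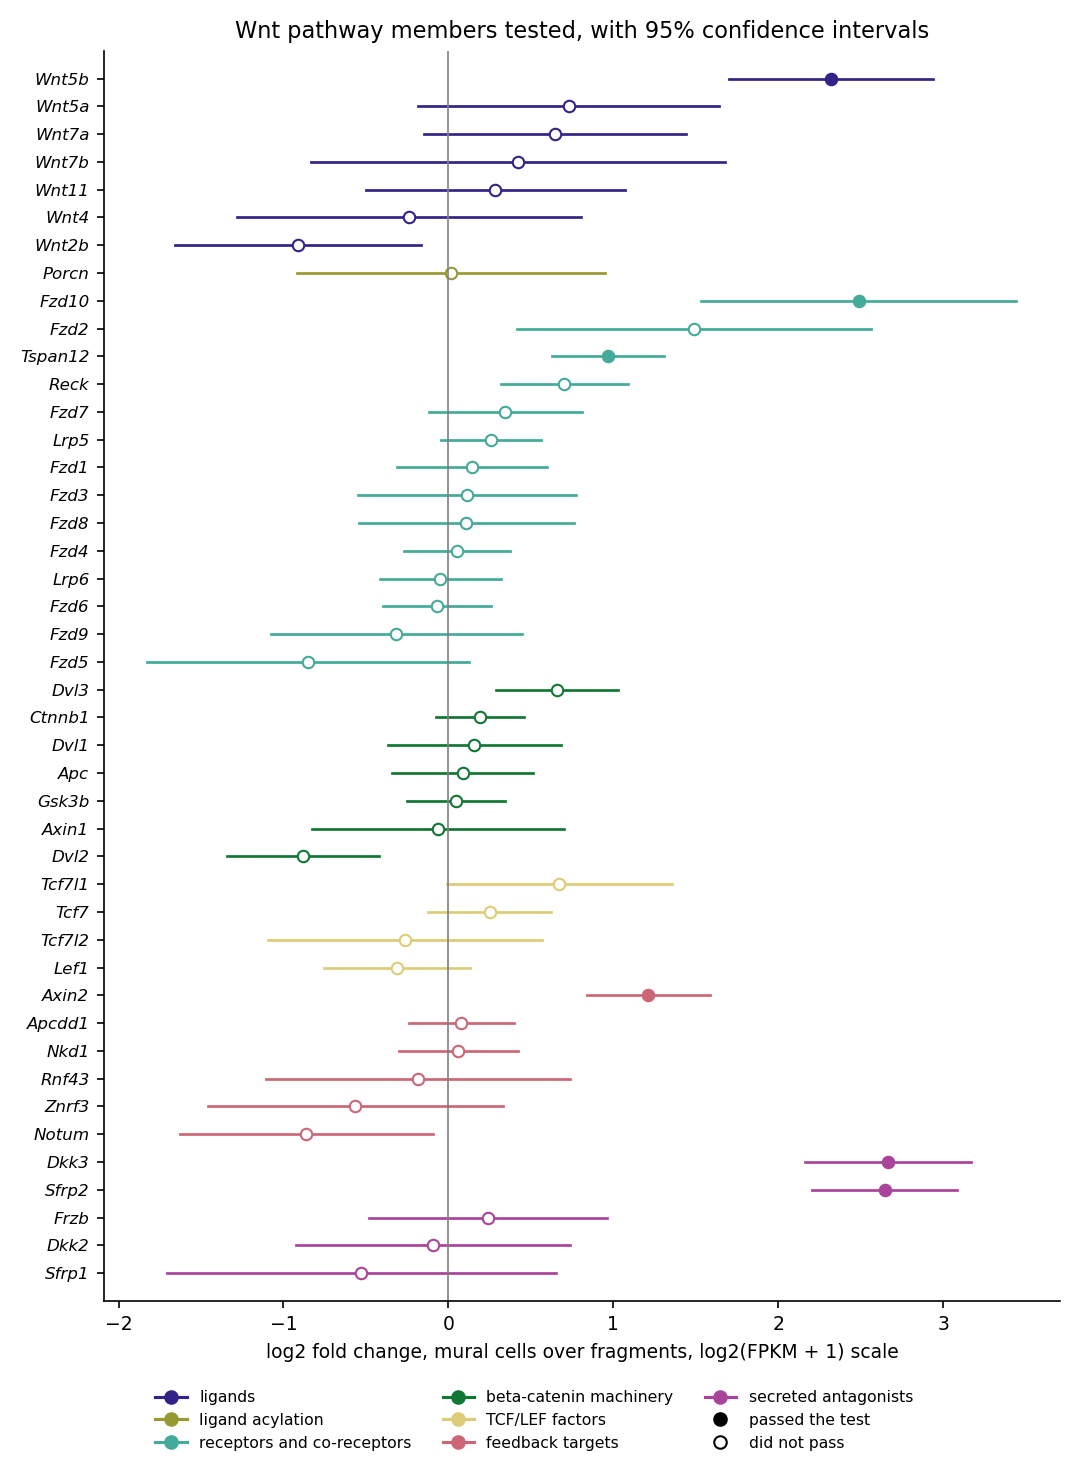
Log2 fold change of mural cells over fragments on the log2(FPKM + 1) scale (x axis) for the 44 tested genes (y axis), with 95% confidence intervals from limma, coloured by class; filled points passed the test. The 6 filled points lie to the right of 0, and most open intervals span 0.

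The 6 genes that were higher differ in their roles. Promoter sequences of 5 of them are shown because *Axin2* is a known direct target of β-catenin with TCF/LEF. The 6 were picked for being higher, so their shared direction follows from that choice, and shared regulation was not tested. The sequences are the 250 bases before the annotated start in RefSeq (GRCm38.p6), written 5′ to 3′ on the strand of the gene, with the core of the TCF/LEF motif, CTTTGA on either strand, in capitals where present. They lie at chr11:108920099-108920348 (plus strand) for *Axin2*, chr3:83766071-83766320 (plus strand) for *Sfrp2*, chr5:128600856-128601105 (plus strand) for *Fzd10*, chr6:21852534-21852783 (minus strand) for *Tspan12* and chr6:119449387-119449636 (minus strand) for 1 of 3 starts of *Wnt5b*.
Axin2: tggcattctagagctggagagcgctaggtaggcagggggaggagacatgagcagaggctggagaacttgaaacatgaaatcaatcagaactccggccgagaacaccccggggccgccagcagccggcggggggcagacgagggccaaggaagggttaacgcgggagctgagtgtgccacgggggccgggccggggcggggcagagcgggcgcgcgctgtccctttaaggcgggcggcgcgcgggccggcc
Sfrp2: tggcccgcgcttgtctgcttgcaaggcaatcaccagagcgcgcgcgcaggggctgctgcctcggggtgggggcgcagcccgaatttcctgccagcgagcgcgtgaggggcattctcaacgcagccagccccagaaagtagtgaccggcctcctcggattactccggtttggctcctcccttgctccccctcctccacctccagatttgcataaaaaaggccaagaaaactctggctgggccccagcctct
Fzd10: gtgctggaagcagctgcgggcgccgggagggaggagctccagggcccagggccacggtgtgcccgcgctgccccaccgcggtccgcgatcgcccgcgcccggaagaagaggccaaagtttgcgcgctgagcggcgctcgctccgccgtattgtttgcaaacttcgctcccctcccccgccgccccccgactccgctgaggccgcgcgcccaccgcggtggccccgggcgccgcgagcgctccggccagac
Tspan12: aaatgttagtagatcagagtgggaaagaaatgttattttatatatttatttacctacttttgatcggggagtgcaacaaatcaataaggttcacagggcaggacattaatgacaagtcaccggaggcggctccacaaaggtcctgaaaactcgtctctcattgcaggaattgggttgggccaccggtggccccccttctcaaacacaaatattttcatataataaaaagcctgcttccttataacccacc
Wnt5b: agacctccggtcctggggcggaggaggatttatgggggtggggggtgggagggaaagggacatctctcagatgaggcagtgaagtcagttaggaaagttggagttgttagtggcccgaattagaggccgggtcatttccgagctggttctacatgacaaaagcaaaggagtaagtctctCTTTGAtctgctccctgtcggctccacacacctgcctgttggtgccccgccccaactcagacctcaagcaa
Of the 5 sequences shown, the motif was found in that of *Wnt5b*, at position -71 counted back from -1 before the start. This start was shown because it holds the motif, which the other 2 starts of *Wnt5b* lacked. The promoter table held 34 of the 50 genes with 44 promoters, of which 6 (13.6%) contained the motif, beside 13.8% of all 32851 promoters of this length. Absence of the letters says only that they are not in this window. The G and C content was 42.0% for *Tspan12*, 55.6% for this *Wnt5b* start, 63.6% for *Sfrp2*, 69.2% for *Axin2* and 76.4% for *Fzd10*. *Dkk3* was not in the table.

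Among the ligands, *Wnt5b* was higher in mural cells. *Wnt5b* (chr6:119382549-119494336, minus strand, NCBIM37) encodes a ligand known mainly for signalling without β-catenin. Its level was 4.604, 3.82 and 3.21 FPKM in fragments and 16.4, 28.0 and 27.3 FPKM in mural cells, with no overlap between the groups. The means were 3.88 ± 0.697 and 23.9 ± 6.52 FPKM (SD, n = 3 each), a ratio of 6.16. The log2 fold change was 2.32 (SE 0.26, limma adjusted p = 0.00101). The values rest on approximately 45, 35 and 32 fragments in the microvascular libraries and 62, 45 and 46 in the mural cell libraries.

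*Wnt5a*, its close relative, had the highest mean of the Wnt genes in both preparations. In mural cells the means of *Wnt5a* and *Wnt5b* were close (24.3 and 23.9 FPKM), and *Wnt5b* was above *Wnt5a* in mural cell libraries 2 and 3. *Wnt5a* was measured at 11.5, 18.1 and 10.6 FPKM in fragments and at 36.7, 12.3 and 24.0 FPKM in mural cells. Mural cell library 2 lay within the range of the fragments, and the difference did not pass the test (ratio 1.82, log2 fold change 0.73, SE 0.39, limma adjusted p = 0.229). Without that library the call was made (log2 fold change 1.13, limma adjusted p = 0.0378). *Wnt5a* and *Wnt5b* together made up 62.7 to 78.2% of the summed FPKM of the 11 Wnt genes in fragments and 77.1 to 89.0% in mural cells. The part of *Wnt5b* alone was 13.6 to 18.2% in fragments, against 26.9, 61.8 and 41.0% in mural cell libraries 1, 2 and 3.

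The ligands known for brain angiogenesis were low in both preparations. *Wnt7a* was measured at 0.737, 1.19 and 0.795 FPKM in fragments and at 1.52, 1.36 and 3.42 FPKM in mural cells (ratio 2.31, limma adjusted p = 0.222), and the mural cell values rest on approximately 8, 3 and 8 fragments. *Wnt7b* was measured at 1.13, 1.72 and 1.85 FPKM in fragments and at 1.71, 0.848 and 6.94 FPKM in mural cells (ratio 2.02, limma adjusted p = 0.625). Both were highest in mural cell library 3, the library with the most astrocyte transcripts, whose part in these 2 values was not tested. Of the 49 members above 0 in mural cells, 18 were highest in library 1, 17 in library 2 and 14 in library 3. These counts over all members do not bear on the source of the *Wnt7a* and *Wnt7b* values. Under quantile normalization *Wnt7a* was called higher (log2 fold change 1.27, limma adjusted p = 0.023).

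*Wnt2b* went the other way, at 1.88, 2.10 and 2.36 FPKM in fragments and 1.34, 0.398 and 0.376 FPKM in mural cells. The groups did not overlap, but the difference did not pass the test (ratio 0.333, log2 fold change -0.91, SE 0.32, limma adjusted p = 0.0818), and mural cell libraries 2 and 3 held approximately 1 fragment each. Without mural cell library 1 it was called lower (log2 fold change -1.16, limma adjusted p = 0.0284). The choroid plexus and ependyma markers summed to 744 to 1537 FPKM in fragments and 248 to 293 FPKM in mural cells, and their part in the *Wnt2b* values was not tested. *Wnt4* (ratio 0.713) and *Wnt11* (ratio 1.42) were tested with mean levels under 2 FPKM and adjusted p of 0.743 and 0.598 in limma. The other 5 ligands, *Wnt2*, *Wnt3*, *Wnt6*, *Wnt9a* and *Ndp*, were below the limit for testing. *Wnt2* was listed at 0 in all 6 libraries, and the others reached at most 2.19 FPKM. *Porcn*, the acyltransferase that attaches the lipid to Wnt proteins, had mean levels of 4.09 and 4.57 FPKM (ratio 1.12, limma adjusted p = 0.981).

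**Figure D2:**
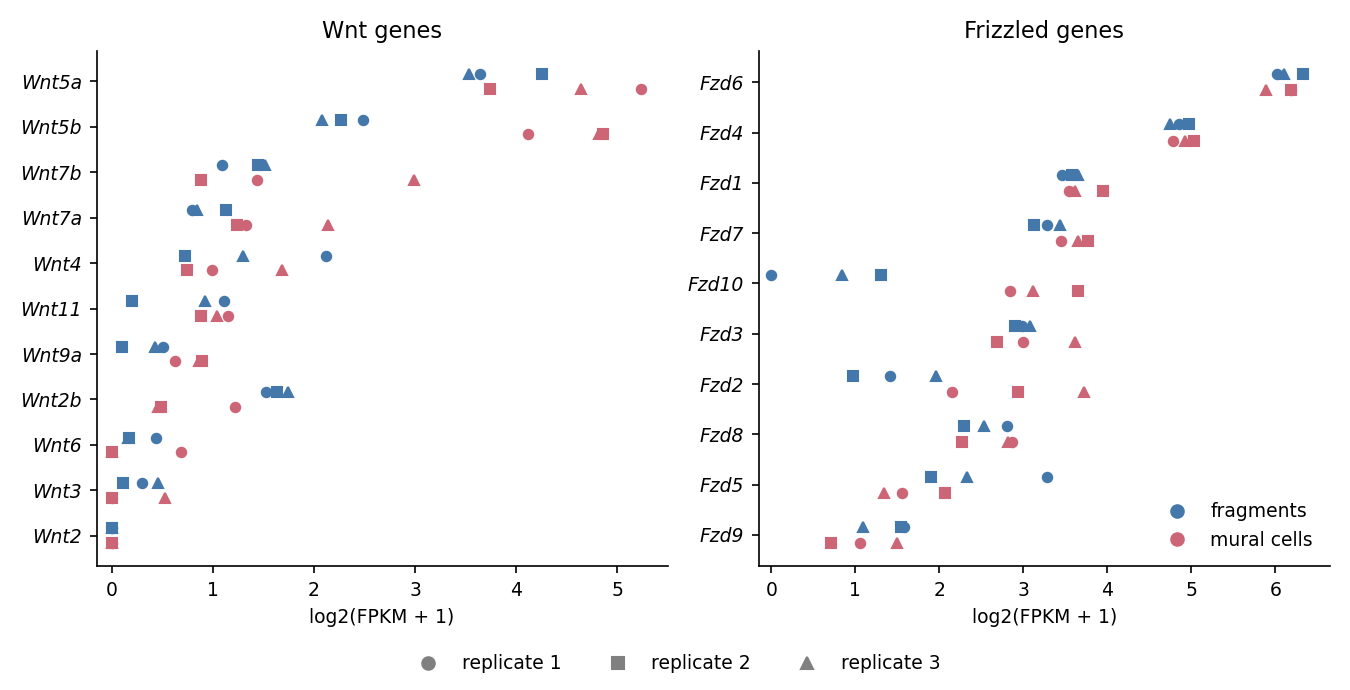
Levels of the 11 Wnt genes (left) and 10 Frizzled genes (right) in each library as log2(FPKM + 1) (x axis), with genes ordered by their mean in mural cells; blue points are fragments, red points are mural cells, and the marker shape is the replicate. *Wnt5a* and *Wnt5b* lie above the other Wnt genes in mural cells, *Fzd6* and *Fzd4* lead the Frizzled genes in both groups, and *Fzd10* separates the groups.

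*Fzd10* was the Frizzled receptor with the largest ratio. It was low in the fragments and measured in all 3 mural cell libraries. *Fzd10* (chr5:129106719-129109968, plus strand, NCBIM37) was listed below the value of 1 fragment in fragment library 1, where 3 fragments would correspond to 0.215 FPKM, and at 1.47 and 0.789 FPKM in libraries 2 and 3. In mural cells it was measured at 6.18, 11.5 and 7.65 FPKM, above every fragment library. The means were 0.753 ± 0.736 and 8.46 ± 2.77 FPKM (SD, n = 3 each), a ratio of 11.2, and the log2 fold change was 2.49 (SE 0.41, limma adjusted p = 0.00487). The ratio depended on single fragment libraries: it was 7.49 without library 1 and 21.4 without library 2. The log2 fold change was then 2.13 (limma adjusted p = 0.0147) and 2.78 (limma adjusted p = 0.00882), and the call was kept. The mural cell values rest on approximately 33, 26 and 18 fragments. By mean FPKM, *Fzd10* was in place 10 of the 10 Frizzled genes in fragments and in place 5 in mural cells.

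The most abundant Frizzled genes were not called. *Fzd6* had the highest level of the family in all 6 libraries, at 64.1, 79.6 and 67.9 FPKM in fragments and 72.2, 71.7 and 58.2 FPKM in mural cells. The 2 ranges overlapped (ratio 0.955, limma adjusted p = 0.772, log2 fold change between -0.40 and 0.26 at 95% confidence). *Fzd4*, the receptor of Norrin and of Wnt ligands in brain and retinal endothelium, was measured at 28.0, 30.5 and 25.9 FPKM in fragments and at 26.5, 31.6 and 29.5 FPKM in mural cells (ratio 1.04, limma adjusted p = 0.821, interval -0.27 to 0.37). Endothelial transcripts remained in the mural cell libraries (above), and their part in the levels of *Fzd4* and *Fzd6* was not tested.

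*Fzd2* was close to the limit of the test. Its values were 1.66, 0.966 and 2.88 FPKM in fragments and 3.45, 6.66 and 12.2 FPKM in mural cells, without overlap (ratio 4.05, log2 fold change 1.49, SE 0.46, limma adjusted p = 0.0558). It was called higher without mural cell library 1 (log2 fold change 1.88, limma adjusted p = 0.0229), under quantile normalization (1.95, adjusted p = 0.0246) and with protein-coding genes alone (1.49, adjusted p = 0.0463). Over the alternatives its limma adjusted p ranged from 0.0229 to 0.178. The highest *Fzd2* value was in mural cell library 3, the library with the most astrocyte transcripts, whose part in it was not tested. *Fzd1*, *Fzd3*, *Fzd7* and *Fzd8* had ratios of 1.10 to 1.302 and adjusted p of 0.261 to 0.818 in limma. *Fzd5* (8.76, 2.72 and 4.04 against 1.93, 3.20 and 1.54 FPKM, ratio 0.429, limma adjusted p = 0.192) and *Fzd9* (ratio 0.703, limma adjusted p = 0.538) had lower means in mural cells that did not pass the test.

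*Tspan12*, a tetraspanin known to enhance Norrin signalling through Fzd4, was higher in mural cells. *Tspan12* (chr6:21721395-21802515, minus strand, NCBIM37) was measured at 26.7, 30.1 and 28.7 FPKM in fragments and at 52.5, 67.1 and 51.3 FPKM in mural cells. Every mural cell library lay above every fragment library. The means were 28.5 ± 1.70 and 57.0 ± 8.82 FPKM (SD, n = 3 each), and the log2 fold change was 0.97 (SE 0.14, limma adjusted p = 0.00321). The ratio of 2.00 was at the fold limit, and the call was lost without fragment library 1 (log2 fold change 0.92, adjusted p = 0.0199), without mural cell library 2 (0.84, adjusted p = 0.00626), under quantile normalization (0.94, adjusted p = 0.00265) and with the fold limit set on the limma fold change.

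*Reck*, which acts with Gpr124 in the recognition of Wnt7a and Wnt7b, had a smaller difference. Its values were 10.7, 10.7 and 11.2 FPKM in fragments and 20.5, 18.1 and 16.5 FPKM in mural cells, without overlap. The adjusted p in limma was 0.0209, but the ratio of 1.69 did not reach the fold limit. The co-receptor *Lrp5*, which had the highest mean of the non-Frizzled receptor genes, was measured at 47.1, 47.7 and 49.4 FPKM in fragments and at 58.6, 65.2 and 50.4 FPKM in mural cells (ratio 1.21, limma adjusted p = 0.198, interval of the log2 fold change -0.04 to 0.56). *Lrp6* was measured at 39.2, 28.7 and 35.9 FPKM in fragments and at 36.7, 31.4 and 31.6 FPKM in mural cells, and the ranges overlapped (ratio 0.96, limma adjusted p = 0.857).

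None of the 7 genes of the β-catenin machinery was called in either direction, and *Ctnnb1*, *Axin1* and *Apc* were among the most abundant of the 50. *Ctnnb1*, which encodes β-catenin, was measured at 293, 272 and 266 FPKM in fragments and at 294, 350 and 310 FPKM in mural cells (ratio 1.15, limma adjusted p = 0.276, interval of the log2 fold change -0.07 to 0.46). The scaffolds *Apc* (ratio 1.07) and *Axin1* (ratio 1.04) and the kinase *Gsk3b* (ratio 1.04) had adjusted p of 0.773, 0.917 and 0.832 in limma. *Axin1* varied most within mural cells, with 112, 181 and 66.1 FPKM.

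The 3 Dishevelled genes, whose products link Frizzled receptors to the machinery, differed in direction. *Dvl2* was lower in mural cells at an adjusted p of 0.0175 in limma, with 33.1, 22.2 and 26.5 FPKM in fragments and 16.3, 14.1 and 12.2 FPKM in mural cells. The ratio of 0.522 did not reach the fold limit. It was called lower without fragment library 2 (log2 fold change -1.02, limma adjusted p = 0.0289) and without mural cell library 1 (-0.98, adjusted p = 0.0226). *Dvl3* was higher at an adjusted p of 0.023 in limma, with 26.4, 28.2 and 25.6 FPKM in fragments and 34.9, 49.0 and 45.8 FPKM in mural cells (ratio 1.62). *Dvl1*, the third of them, had a ratio of 1.15 and a limma adjusted p of 0.666.

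All 4 TCF/LEF factors were expressed in both preparations, and none was called. *Lef1* had the highest mean of the class in fragments and *Tcf7* in mural cells. *Lef1* was measured at 51.1, 57.8 and 38.3 FPKM in fragments and at 44.8, 39.5 and 33.0 FPKM in mural cells (ratio 0.797, limma adjusted p = 0.288, interval of the log2 fold change -0.76 to 0.13). *Tcf7* was measured at 40.0, 48.5 and 35.0 FPKM in fragments and at 55.7, 45.8 and 45.2 FPKM in mural cells (ratio 1.19, limma adjusted p = 0.316). Both pairs of ranges overlapped. *Tcf7l1* (ratio 1.68, limma adjusted p = 0.148) and *Tcf7l2* (ratio 0.886, limma adjusted p = 0.647) had lower levels, with means of 11.5 to 24.7 FPKM.

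*Axin2*, a scaffold of the destruction complex whose gene is switched on by β-catenin, was the feedback target that was higher in mural cells. *Axin2* (chr11:108781663-108812097, plus strand, NCBIM37) was measured at 43.7, 60.0 and 44.7 FPKM in fragments and at 101, 126 and 119 FPKM in mural cells. The lowest mural cell value lay well above the highest fragment value. The means were 49.5 ± 9.13 and 115 ± 12.8 FPKM (SD, n = 3 each), a ratio of 2.33, and the log2 fold change was 1.21 (SE 0.16, limma adjusted p = 0.00187).

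The other 5 feedback targets were not called. *Apcdd1*, which encodes a membrane-bound Wnt inhibitor, had the highest level of all 50 genes in every library, at 412, 440 and 350 FPKM in fragments and 462, 425 and 381 FPKM in mural cells. Its ranges overlapped (ratio 1.06, limma adjusted p = 0.721, interval of the log2 fold change -0.24 to 0.40). *Notum*, a deacylase that removes the lipid from Wnt proteins, was measured at 33.6, 38.2 and 31.6 FPKM in fragments and at 32.9, 13.1 and 14.4 FPKM in mural cells (ratio 0.584, limma adjusted p = 0.105). Only mural cell library 1 lay within the range of the fragments, and without it *Notum* was called lower (log2 fold change -1.26, limma adjusted p = 0.00371). *Nkd1*, a Dishevelled-binding inhibitor, had a ratio of 1.04 (limma adjusted p = 0.815). *Znrf3* and *Rnf43*, ubiquitin ligases that remove Frizzled receptors from the cell surface, had ratios of 0.703 and 0.727 (limma adjusted p = 0.342 and 0.78).

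The secreted antagonists had the largest ratio of summed levels of any class. *Sfrp2* and *Dkk3* were higher in mural cells by a ratio of about 7 each, and the other 3 tested genes of the class were not called. *Sfrp2* (chr3:83570243-83578238, plus strand, NCBIM37) encodes a secreted Frizzled-related protein that binds Wnt ligands. It was measured at 6.67, 4.58 and 4.76 FPKM in fragments and at 41.2, 35.8 and 38.0 FPKM in mural cells. The means were 5.34 ± 1.15 and 38.3 ± 2.72 FPKM (SD, n = 3 each), a ratio of 7.18, and the log2 fold change was 2.65 (SE 0.19, limma adjusted p = 1.66e-04).

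*Dkk3* (chr7:119259533-119302571, minus strand, NCBIM37) encodes a divergent member of the Dickkopf family. It was measured at 6.45, 9.14 and 5.85 FPKM in fragments and at 41.2, 58.7 and 51.5 FPKM in mural cells. As for *Sfrp2*, the groups were far apart. The means were 7.15 ± 1.75 and 50.5 ± 8.78 FPKM (SD, n = 3 each), a ratio of 7.06, and the log2 fold change was 2.67 (SE 0.21, limma adjusted p = 2.54e-04). *Dkk3* and *Sfrp2* together made up 37.1 to 43.4% of the summed FPKM of the 6 antagonists in fragments and 75.2 to 88.2% in mural cells.

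*Dkk2*, *Frzb* and *Sfrp1* had ratios of 1.01, 1.27 and 0.742 and adjusted p of 0.879, 0.627 and 0.503 in limma. For *Dkk2* and *Frzb*, mural cell library 1 was the highest of the 6 libraries, at 11.3 and 12.4 FPKM. *Wif1* was not tested, with at most 1.04 FPKM in any library.

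Of the 7 tested markers of fibroblasts and meninges, 5 were higher in mural cells, as the 6 members were: the collagen genes *Col1a1*, *Col1a2* and *Col3a1* and the proteoglycan genes *Dcn* and *Lum*. *Slc6a13* (limma adjusted p = 0.454) and *Aldh1a2* (limma adjusted p = 0.808) did not pass, and *Dpt* was listed at 0 in every library but mural cell library 1. Summed over the list, the markers were at 56.1, 65.2 and 64.1 FPKM in fragments and at 493, 677 and 598 FPKM in mural cells. *Col1a1* was at 7.19, 7.52 and 11.1 FPKM and at 107, 110 and 115 FPKM. The study's catalogue of genes enriched in brain mural cells, drawn in part from these data, holds *Col1a2* and *Col3a1* but not *Col1a1*, *Dcn* or *Lum*. The part of other cells in the values of the 6 genes was not tested. The sums of the mural cell markers were 372 to 594 FPKM in fragments and 3960 to 5143 FPKM in mural cells.

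**Figure D3:**
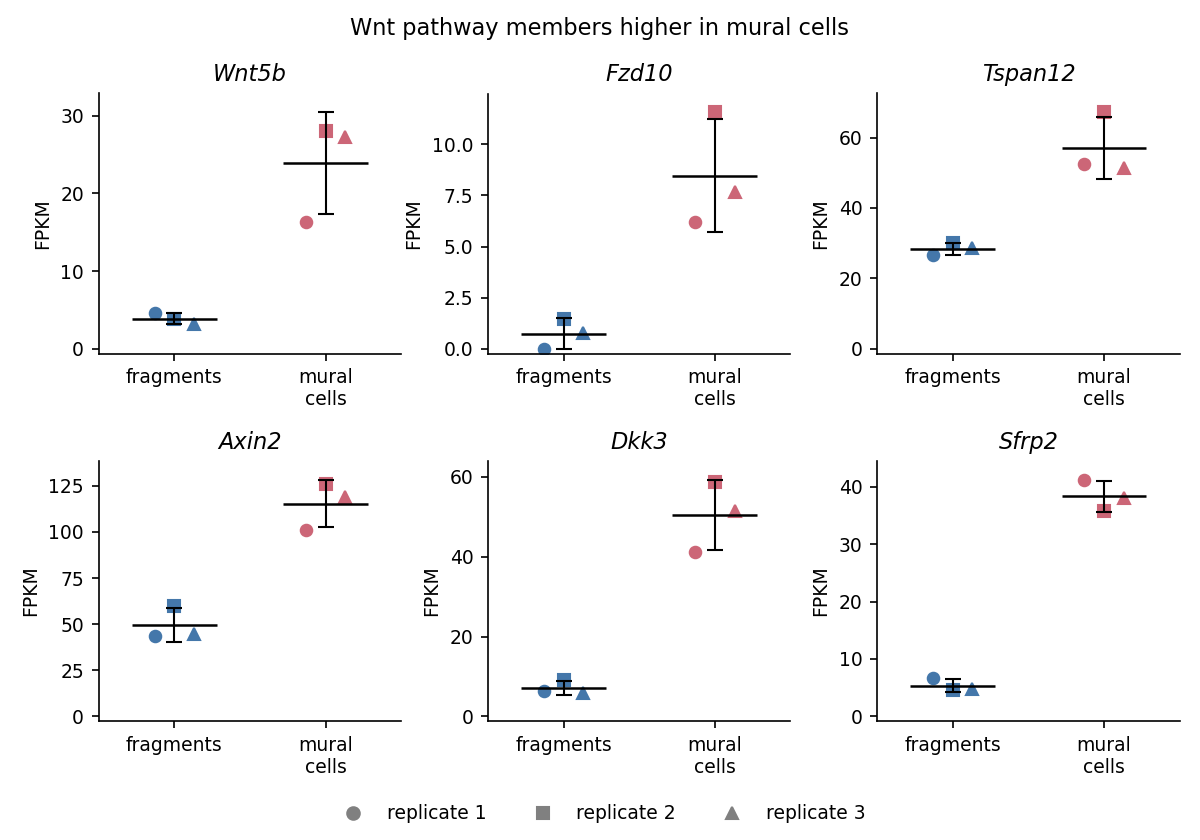
FPKM (y axis, from 0) of the 6 genes that were higher in mural cells, in fragments and in mural cells; points are libraries with the marker shape giving the replicate, horizontal lines are means and bars are SD (n = 3 each). In each panel the 3 mural cell points lie above the 3 fragment points, with *Tspan12* and *Axin2* showing the smallest ratios.

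By class, the summed FPKM of the ligands was 25.6 ± 3.11 in fragments and 58.7 ± 11.5 in mural cells (SD, n = 3 each), a ratio of 2.29, and that of the secreted antagonists 30.4 ± 1.60 and 108 ± 1.83, a ratio of 3.54. Without *Wnt5b* the ligand sums were 21.7 ± 2.86 and 34.8 ± 14.6, and without *Dkk3* and *Sfrp2* the antagonist sums were 17.9 ± 0.0702 and 18.8 ± 7.56. The sums of the receptors and co-receptors had a ratio of 1.22, those of the β-catenin machinery 1.10, those of the TCF/LEF factors 1.02 and those of the feedback targets 1.12. Without *Axin2* the feedback targets summed to 517.5 ± 64.0 FPKM in fragments and 520 ± 62.2 FPKM in mural cells. These sums are descriptions and were not tested.

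**Figure D4:**
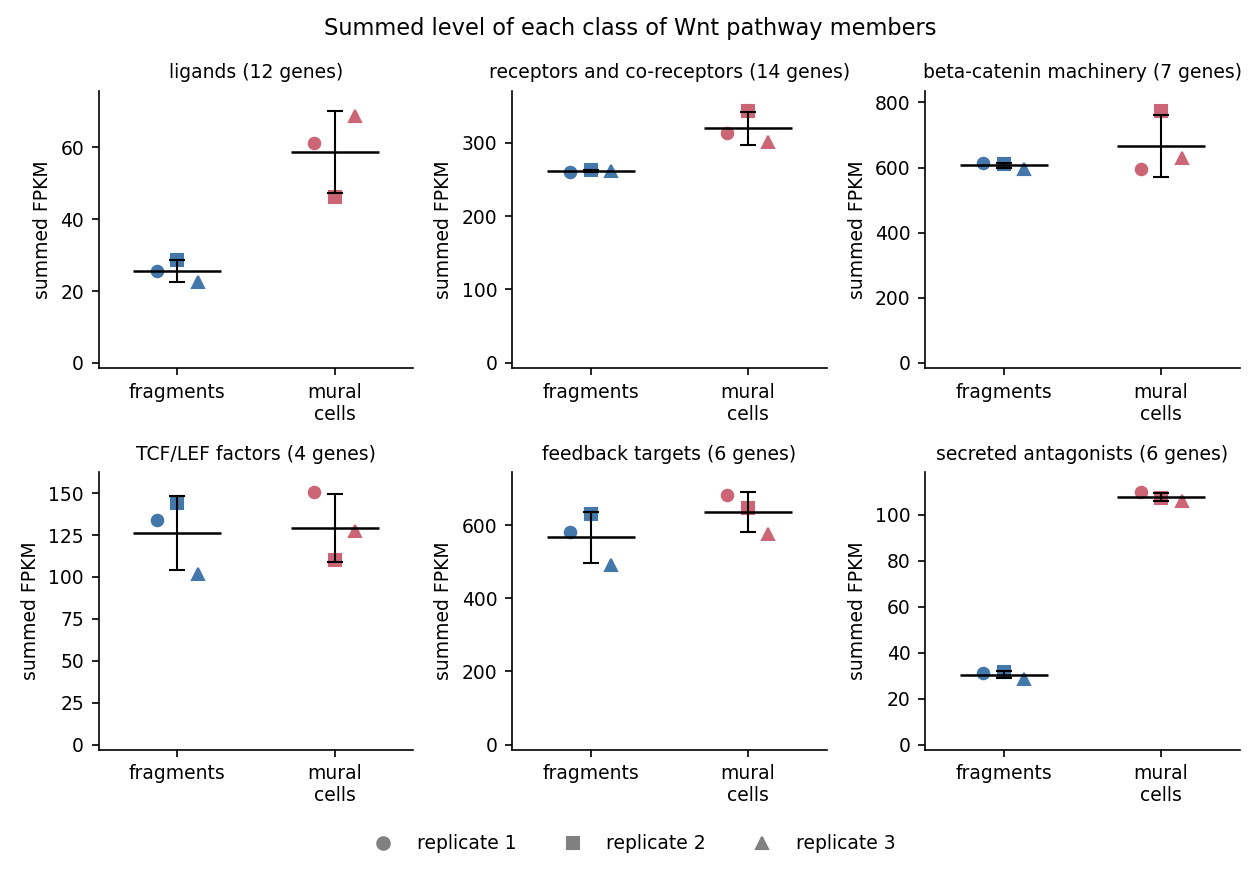
Summed FPKM (y axis, from 0) of the genes of each class in each library of fragments and mural cells; points are libraries, horizontal lines are means and bars are SD (n = 3 each). The sums of ligands and of secreted antagonists separate the groups widely, whereas those of the TCF/LEF factors and feedback targets overlap.

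A further 83 genes of the pathway were listed by function, also with earlier results of these data known. Of these, 61 were tested. In mural cells 12 were higher (19.7% of those tested, beside 6.43% of all genes) and 2 were lower (beside 10.1%). These shares are descriptions and were not tested. The median ratio over the 61 genes was 1.257. The higher genes lay mainly at the cell surface and among intracellular inhibitors. Of 11 tested further receptors and co-receptors, 5 were higher: the glypicans *Gpc3*, *Gpc4* and *Gpc6*, which are heparan sulfate proteoglycans, the co-receptor *Ptk7* and the Wnt5a receptor *Ror1*. *Gpc3* was measured at 16.8, 17.9 and 12.5 FPKM in fragments and at 94.5, 120 and 110 FPKM in mural cells (ratio 6.87, limma adjusted p = 1.18e-04). *Ptk7* was measured at 10.3, 10.7 and 10.8 FPKM in fragments and at 62.0, 53.0 and 62.4 FPKM in mural cells (ratio 5.57, limma adjusted p = 9.16e-05). The groups were far apart for both. *Gpc6* and *Gpc4* had ratios of 6.23 and 4.91 (limma adjusted p = 5.55e-04 and 5.52e-04).

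Of 4 tested further antagonists, *Dact1*, *Dact3* and *Nkd2*, which act on Dishevelled inside the cell, were higher. *Dact1* was measured at 3.16, 4.11 and 2.07 FPKM in fragments and at 28.3, 31.3 and 29.2 FPKM in mural cells (ratio 9.52, log2 fold change 2.93, limma adjusted p = 2.56e-04). *Sostdc1*, a secreted antagonist of Wnt and BMP ligands, was lower, at 20.8, 12.5 and 7.89 FPKM in fragments and 1.46, 0 and 1.64 FPKM in mural cells (ratio 0.0751, log2 fold change -2.89, limma adjusted p = 0.00555). *Ttr*, the main transcript of choroid plexus, was measured at 1358, 872 and 638 FPKM in fragments and at 195, 244 and 208 FPKM in mural cells, and the part of choroid plexus in the *Sostdc1* values was not tested.

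In the planar polarity branch, which does not use β-catenin, 2 of 9 tested genes were higher. *Daam2*, a formin that acts downstream of Dishevelled, was measured at 18.0, 16.1 and 11.8 FPKM in fragments and at 89.1, 100 and 98.1 FPKM in mural cells (ratio 6.26, limma adjusted p = 1.31e-04), and *Prickle2* was the other. *Wls*, which carries Wnt proteins to the cell surface, and *Pygo1*, a nuclear cofactor of β-catenin, were higher too. None of the 13 further cytoplasmic components was called, although 2 were higher and 1 lower by the adjusted p alone.

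Of the 11 further target genes tested, none was called higher and *Sox17* was called lower. By the adjusted p alone, 1 was higher and 2 were lower, *Sox17* among them, beside 9.34% and 13.0% of all genes tested. *Sox17*, which encodes a transcription factor of endothelial cells, was measured at 50.6, 66.0 and 50.1 FPKM in fragments and at 23.7, 23.5 and 30.9 FPKM in mural cells (ratio 0.469, log2 fold change -1.06, limma adjusted p = 0.00453). Its ratio lay within the wide range of the 12 endothelial markers (0.353 to 1.29) but below their median of 0.672. Of the 12 markers, 2 had a ratio under 0.5. The part of endothelial cells in the *Sox17* values was not tested.

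**Figure D5:**
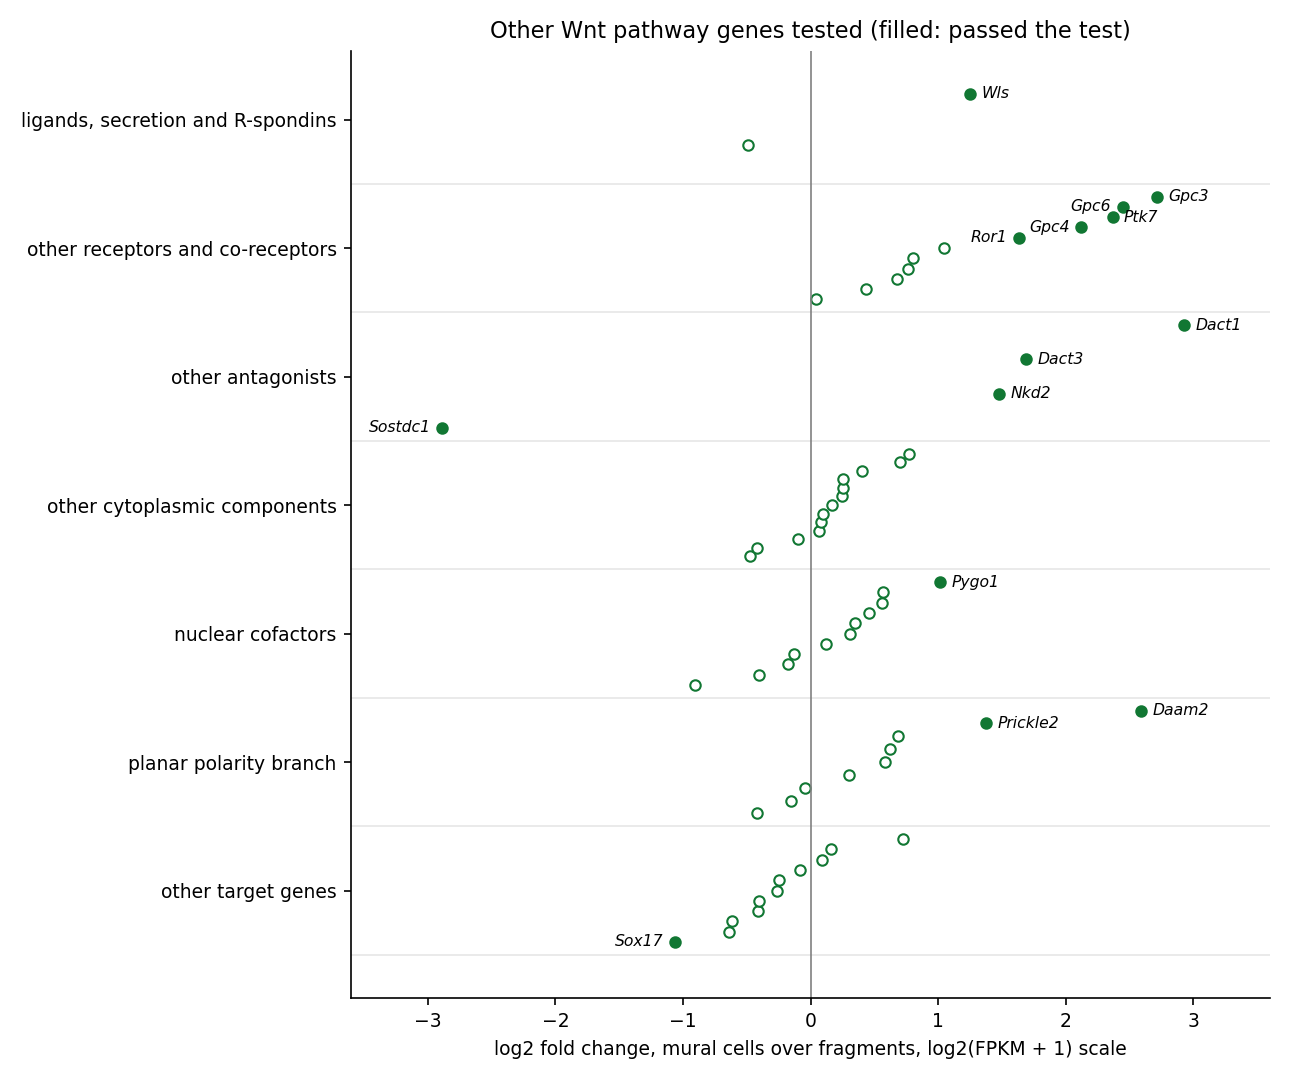
Log2 fold change of mural cells over fragments on the log2(FPKM + 1) scale (x axis) for the 61 tested further pathway genes, by class (y axis, spread within a class for legibility); filled points passed the test and are named. The 12 higher genes lie to the right, with 5 of them among the receptors and co-receptors, and *Sostdc1* and *Sox17* lie to the left.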

How the data were processed

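RNA-seq was performed on 3 samples of sorted mural cells and 3 of microvascular fragments. The authors aligned reads to NCBIM37 with TopHat2 2.0.4, removed duplicates using Picard 1.92, ran Cufflinks 2.2.1 for quantification, and deposited 1 FPKM value per gene and library (tools as in the submitters' processing notes). Removing duplicates can lower the values of abundant genes. From these FPKM values, genes were given symbols and positions by the GENCODE record for NCBIM37, and promoters came from RefSeq (GRCm38.p6). Repeated lines of 9 identifiers, equal in value, were dropped. log2(FPKM + 1) was fitted with limma 3.58.1 (R 4.3.3, intensity trend, no covariate) over the 14801 genes reaching 1 FPKM in 3 or more samples, after a test of the script on simulated data. Other steps used pandas 2.3.3 and NumPy 2.4.6 under Python 3.11.15. Genes with 1 annotated transcript gave the FPKM of 1 fragment, and for them 97.84 to 98.8% of values up to 10 fragments were whole (tolerance 0.1 fragment). Fragment numbers of other genes use the longest transcript and are approximate.

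All 50 genes could be named. Values per sample were given for those called and for the most abundant of each class, and otherwise for those near a threshold, which, like the single fibroblast markers named, were chosen after their values were seen. Further pathway genes were named where called, with values for at most 6 in each direction. The members, the lists and the markers were chosen with earlier results of these data known. The marker lists of oligodendrocyte progenitors (median ratio 140.4%), neurons (51.11%), astrocytes (135.8%) and erythroid cells (103.6%) gave no call in either direction. Alternatives were another pseudocount, filters, scalings, thresholds, a fit with no trend, the replicate number as a block, and leaving out each sample.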

Additional observations from a re-analysis of the deposited data

How the results depend on the processing

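The count of members higher in mural cells, 6 as reported, was between 5 and 7 over all alternatives, those that left out a sample included. The count lower, 0 as reported, was 1 without an intensity trend (*Wnt2b*) and 0 to 3 when each sample was left out, with 3 (*Wnt2b*, *Dvl2* and *Notum*) without mural cell library 1. Further pathway genes lower, 2 as reported, ranged from 1 to 3 when each sample was left out. Over all genes, the 1493 lower calls became 948 with a filter at an FPKM of 5, 845 at an adjusted p under 0.01 and 607 to 1733 when each sample was left out. Quantile normalization moved the median log2 fold change of all genes by 0.133. The median log2 ratio of the feedback targets, -0.20 as reported, was 0.06 with the filter at an FPKM of 5, -0.02 under quantile normalization and 0.13 without fragment library 2. The median of all members, 0.16, was 0.31 under quantile normalization. That of the ligands, 0.86, was 1.74 with the filter at 5 and 1.94 under quantile normalization, that of the receptors, 0.18, was 0.36 under quantile normalization and 0.26 without mural cell library 1, and that of the antagonists, 0.35, was 1.58 with the filter at 5. The filter tests fewer genes, and leaving out a sample uses fewer samples; otherwise the cause was not tested. Of 687 alternatives to the fold change of a member, 673 left the call as reported, 3 lost a call (*Tspan12*), 11 gained one and 0 reversed a call, and 20 members without a call changed sign in some alternative. The fold limit set on the limma fold change, under which *Tspan12* also lost its call, is not among the 3.

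The replicate number as a block gave 7 members higher and 0 lower (*Fzd2* added, limma adjusted p = 0.0406), 11 and 2 of the further pathway genes, and 900 higher and 1344 lower over all genes. The labels do not say that a number marks an animal. Deviations of same-numbered samples from their group means correlated at r = 0.0818, 0.0203 and 0.0454 across genes, none over 0.1, although every sample correlated best with its own number, as a hint from the data and not the design.

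With 3 libraries per group, the limma p-values set the difference of means against a moderated variance. It combines the spread between these samples with an intensity trend over all genes tested. The reported fit did not pair samples, although by the methods both preparations came from the same 3 brains. The depth of mural cell libraries 2 and 3 limits what can be said of genes under about 1 FPKM there, since 1 fragment of *Wnt2b* corresponds to approximately the values listed.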
